A study of Mus musculus with 62 samples.

Results

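The genes described here are 10 members of the FoxO-driven wasting programme of skeletal muscle, measured in the cerebellum of mice with and without a melanoma. They are the transcription factors Foxo1, Foxo3 and Foxo4, the ubiquitin ligase genes Fbxo32 and Trim63, and the autophagy genes Map1lc3b, Sqstm1, Gabarapl1, Bnip3 and Ulk1. They were chosen by name, as the rows of these 10 symbols among the 47643 symbols of the table. Of the 10, 9 passed a filter on low values, together with 14399 symbols in all. Trim63 did not pass, with a mean of 0.12 TPM (a relative transcript level corrected for gene length, which sums to 1000000 in each library).

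RNA of the cerebellum was sequenced in 62 libraries from 2-month-old female mice, collected 2, 4, 6 or 8 weeks (wk) after injection. The groups were mice injected with melanoma cells that cause cachexia, a tumour-driven loss of body mass (CAC), with melanoma cells that do not (NCAC), and mock-injected mice (mock). Each of the 12 groups held 5 libraries, apart from CAC at 8 wk with 7. Groups were taken from the sample descriptions, because the treatment field names cachectic cells for every sample. The labels name the strain as C57BL6/J for each sample and as NCI Ath/nude for the whole study, so it is unsettled here whether the hosts had a thymus. The labels do not say which animal gave which library, so the tests measure the spread between libraries described as biological replicates. TPM keeps no sequencing depth, and the depth of each library is unknown. In bulk tissue, fewer cells of a type and less RNA per cell cannot be told apart.

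FoxO factors are kept out of the nucleus when insulin and growth factor signals activate the kinase Akt, and enter it when those signals fall. In wasting skeletal muscle they switch on Fbxo32 and Trim63, whose products mark muscle proteins for the proteasome, and genes of autophagy, which delivers cell contents to the lysosome. Glucocorticoids act on the same muscle genes through the glucocorticoid receptor. In the brain FoxO factors are known for roles in neural stem cells and in neurons under stress.

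The promoters of the members were searched for sites of the FoxO factors and the glucocorticoid receptor. The E-box and the antioxidant response core, sites of other factors, were searched too. The window was the 250 bases before the annotated start (RefSeq, build GRCm38.p6, the build called mm10). The sequence table held 8 of the 10 members, without Foxo4 and Fbxo32. The 6 motifs, read on both strands, were the forkhead site GTAAACA, the insulin response site CAAAACA, the glucocorticoid half-site AGAACA, the full glucocorticoid response element (that half-site and its reverse complement with 3 bases between), the E-box CACGTG and the antioxidant response core TGACNNNGC. The half-site lies inside the full element. Over 32817 promoters of this length, GTAAACA was found in 3.16%, CAAAACA in 5.56%, AGAACA in 16.1%, the full glucocorticoid element in 0.00914%, CACGTG in 6.02% and TGACNNNGC in 10.2%. Trim63 and Bnip3 were the members with a match, and Foxo1 and Map1lc3b are shown beside them as called members whose windows held none of the 6. Capitals mark the matches, and each sequence is written along its gene's own strand.
Trim63 promoter, chr4:134314870-134315119, plus strand: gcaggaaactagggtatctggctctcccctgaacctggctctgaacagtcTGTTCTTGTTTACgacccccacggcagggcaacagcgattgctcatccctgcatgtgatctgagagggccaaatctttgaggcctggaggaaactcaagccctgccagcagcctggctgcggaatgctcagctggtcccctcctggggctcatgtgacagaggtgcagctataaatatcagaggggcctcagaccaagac
Bnip3 promoter, chr7:138909507-138909756, minus strand: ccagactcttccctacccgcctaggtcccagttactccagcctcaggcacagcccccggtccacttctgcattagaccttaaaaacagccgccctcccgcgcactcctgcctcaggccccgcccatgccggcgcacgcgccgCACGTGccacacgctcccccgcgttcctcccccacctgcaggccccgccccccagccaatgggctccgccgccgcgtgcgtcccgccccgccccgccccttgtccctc
Foxo1 promoter, chr3:52268087-52268336, plus strand: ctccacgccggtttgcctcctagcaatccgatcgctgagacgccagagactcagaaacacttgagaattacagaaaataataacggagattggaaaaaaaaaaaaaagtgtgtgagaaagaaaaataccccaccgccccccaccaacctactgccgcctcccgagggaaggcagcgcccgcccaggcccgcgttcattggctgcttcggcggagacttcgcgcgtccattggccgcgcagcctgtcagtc
Map1lc3b promoter, chr8:121590188-121590437, plus strand: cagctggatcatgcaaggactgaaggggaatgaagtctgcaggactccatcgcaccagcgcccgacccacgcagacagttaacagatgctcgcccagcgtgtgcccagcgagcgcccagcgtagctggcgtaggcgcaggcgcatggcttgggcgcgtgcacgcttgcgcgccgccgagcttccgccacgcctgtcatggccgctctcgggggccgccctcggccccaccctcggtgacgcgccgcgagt

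In the Trim63 window a glucocorticoid half-site, 200 to 195 bases before the start, directly touches a forkhead site, 194 to 188 bases before it. Both read on the minus strand relative to the gene, so the capitals show their reverse complements. With the bases before it, the half-site reads tgaacagtcTGTTCT, which is the full glucocorticoid element except for its first letter, t in place of a. The search counted exact letters only, so this near match was not counted as a full element. The Bnip3 window holds an E-box at 108 to 103 bases before the start. The windows of Foxo3, Sqstm1, Gabarapl1 and Ulk1, like those of Foxo1 and Map1lc3b, held no match to these letters. A match describes the letters only and is not a measured binding site.

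In the GENCODE annotation of mm10 the plus-strand members lie at chr3:52268336-52353221 (Foxo1), chrX:101254528-101260873 (Foxo4), chr4:134315120-134329629 (Trim63), chr8:121590361-121598760 (Map1lc3b) and chr6:129533160-129542346 (Gabarapl1). The minus-strand members lie at chr10:42181841-42276755 (Foxo3), chr15:58175879-58214932 (Fbxo32), chr11:50199366-50210827 (Sqstm1), chr7:138890836-138909519 (Bnip3) and chr5:110784488-110810097 (Ulk1).

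The members spanned a wide range of levels per length. Gabarapl1, a ubiquitin-like protein of the autophagosome coat, was the most abundant at a mean of 517 TPM over all libraries, rank 187 of the table. Sqstm1, the cargo receptor p62, followed at 279 TPM, with a range of 256 to 313 TPM. Map1lc3b, which encodes the autophagosome marker LC3B, Foxo3 and the mitophagy receptor gene Bnip3 averaged 136.5, 127 and 122 TPM. Their ranges over libraries overlapped widely, so these neighbours in the order are not separated. Ulk1, the kinase that starts autophagy, averaged 87.4 TPM, Foxo4 24.0 TPM and Foxo1 13.8 TPM. Fbxo32, which encodes atrogin-1, averaged 6.71 TPM, and the lowest of its libraries, at 4.73 TPM, stood above the highest Trim63 library, at 0.394 TPM. Thus of the muscle ligase pair, atrogin-1 was a low transcript of the cerebellum, and Trim63, which encodes MuRF1, was near 0 in each of the 12 groups.

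**Figure D1:**
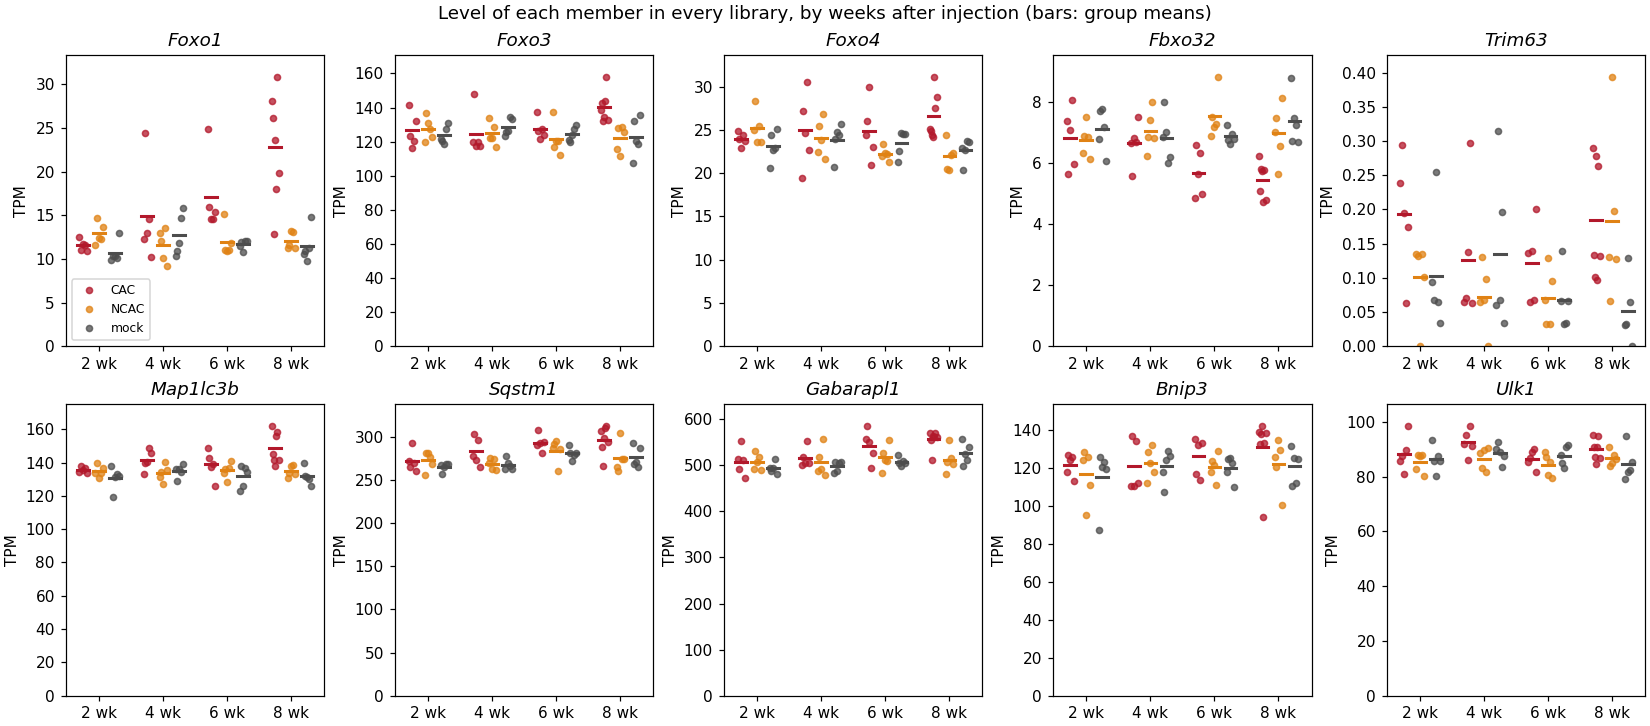
Level of each of the 10 members in TPM (vertical axes, from 0) in every library, by weeks after injection and with CAC, NCAC and mock in that order within a week. Points are libraries and bars are group means. The CAC means of Foxo1 are 11.6, 14.9, 17.1 and 22.8 TPM at 2, 4, 6 and 8 wk, and Fbxo32 is lowest in CAC at 6 and 8 wk, at 5.67 and 5.45 TPM.

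At 8 wk most members were higher in CAC cerebellum and 1 was lower. The 3 FoxO transcripts rose against mock, and so did Map1lc3b and Sqstm1, whereas Fbxo32 fell. In limma, with adjustment over all 14399 symbols, 6 of the 9 tested members passed the threshold of 0.05, of which 5 were higher and 1 was lower. Over all symbols 20.8% were called in this comparison, 13.4% higher and 7.34% lower. Against NCAC at 8 wk, 7 of 9 were called, 6 higher and 1 lower, beside 11.8% of all symbols. The median log2 fold change of the 9 was 0.11 against mock and 0.12 against NCAC, beside 0.021 and 0.020 for all symbols, so apart from Foxo1 and Fbxo32 the shifts were small. These fold changes are on the log2(TPM + 1) scale, which understates the change of low transcripts. NCAC against mock at 8 wk gave 0 of 9 members and 0% of all symbols called in limma, and 0 members at an unadjusted p under 0.05. Both CAC comparisons share the CAC libraries.

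The split of calls over all symbols depends on scaling, and the members' count moves with it. As deposited, 64.7% of the calls in CAC against mock at 8 wk were higher. The share was 49.4% with median-of-ratios scaling, 47.0% with quantile normalization and 41.8% after removal of the mitochondrially encoded genes. The members called numbered 5, 4 and 4 under these scalings, and no member changed sign in this comparison.

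1 library of CAC at 8 wk stood apart. In replicate 3 the red cell transcripts Hba-a1 and Hbb-bs summed to 11940 TPM, against at most 3732 TPM in the other 61 libraries. The glucocorticoid-responsive list, described below, had a mean level of 4.87 on the log2(TPM + 1) scale in this library, whereas the 6 remaining CAC libraries of that week ran from 5.61 to 6.23 and mock libraries from 4.05 to 4.73. Without it, 7 of 9 members were called against mock and 7 of 9 against NCAC. The markers of cerebellar neurons were abundant in every group. The 10 granule cell markers summed to 4685 to 6051 TPM and the 10 Purkinje cell markers to 5458 to 7099 TPM over all groups.

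Foxo1 had the largest log2 fold change of the 9 tested members. At 8 wk its level in CAC ran from 12.8 to 30.9 TPM with a median of 23.6 TPM. NCAC libraries had 11.2, 11.6, 13.2, 13.1 and 11.3 TPM, and mock libraries had 10.6, 10.9, 9.82, 11.3 and 14.8 TPM. Of the 7 CAC libraries, 6 were above every mock and every NCAC library, and replicate 3, at 12.8 TPM, lay inside both ranges. The log2 fold change was 0.89 ± 0.14 (SE; limma, adjusted p = 1.72e-05) against mock and 0.82 ± 0.14 (adjusted p = 1.42e-04) against NCAC. Without replicate 3 it was 1.01 against mock (adjusted p = 2.5e-07). Against NCAC it was then 0.94 (adjusted p = 1.80e-06).

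Over the weeks, Foxo1 averaged 11.6 ± 0.65 TPM in CAC at 2 wk, 14.9 ± 5.56 TPM at 4 wk, 17.1 ± 4.38 TPM at 6 wk (SD, n = 5 each) and 22.8 ± 6.28 TPM at 8 wk (SD, n = 7). In NCAC the means stayed between 11.6 and 12.9 TPM, and in mock between 10.7 and 12.7 TPM. Among the 12 groups, CAC at 8, 6 and 4 wk had the 3 highest means. The other 9 group means lay within 10.7 to 12.9 TPM, and no pair of them in the same week differed past the threshold. Between 2 and 8 wk, the CAC against mock log2 fold change itself shifted by 0.79 ± 0.21 (limma, adjusted p = 0.042), and Foxo1 was the 1 member of 9 called in this test, beside 1.55% of all symbols. Leaving out 1 library at a time, the call held without CAC 8 wk replicate 3, 5 or 7, mock 8 wk replicate 5 or mock 2 wk replicate 3. It was lost without any 1 of the other 17 libraries, at adjusted p of 0.05001 to 0.0953, and the size stayed within 0.71 to 0.91. With the replicate number as a block, which takes CAC 8 wk replicates 6 and 7 out of every comparison that uses it, the change was 0.72 (adjusted p = 0.145). From mock at 2 wk to mock at 8 wk, 0 of 9 members and 0% of all symbols were called in limma, and 1 member, Gabarapl1, had an unadjusted p under 0.05.

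Foxo1 levels at 4 and 6 wk were uneven between CAC libraries. At 4 wk CAC libraries had 12.2, 24.4, 12.97, 14.6 and 10.2 TPM of Foxo1, and mock libraries had 10.4, 10.9, 11.8, 14.7 and 15.8 TPM. A single CAC library, replicate 2, thus exceeded the mock range, and it also had the highest Foxo3 level of its group, at 148 TPM. At 6 wk CAC libraries had 24.9, 16.0, 14.6, 14.6 and 15.4 TPM, against 15.2, 11.02, 10.97, 11.04 and 11.8 TPM in NCAC and 11.5, 11.95, 10.75, 12.1 and 12.1 TPM in mock. All 5 CAC libraries of that week lay above every mock library, a separation found in either direction for 2.97% of all symbols, and the log2 fold change of 0.49 ± 0.16 was not called (limma, adjusted p = 0.0898). Against NCAC at 6 wk it was 0.46 ± 0.16 (limma, adjusted p = 0.051), and it passed without CAC replicate 4 (adjusted p = 0.0381) or NCAC replicate 1 (adjusted p = 0.0334).

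Foxo1 levels are set here beside the mean level of the transcripts that respond to glucocorticoids, as a description of the libraries. In CAC at 8 wk, replicates 1, 2 and 6 had Foxo1 at 28.2, 26.1 and 30.9 TPM and a mean glucocorticoid list level of 6.23, 6.12 and 6.19 on the log2(TPM + 1) scale. Replicate 3, the lowest for Foxo1, was also the lowest for the list, at 4.87. At 6 wk, CAC replicate 1 was the highest of its group for both, at 24.9 TPM and 6.11. At 4 wk, CAC replicate 2 had a list mean of 5.98, against 4.11 to 5.52 in the other 4. The mock libraries of that week with the most Foxo1, at 14.7 and 15.8 TPM, likewise had the highest list means of their group, at 5.11 and 5.29. The orders did not match throughout. In CAC at 8 wk, replicate 4 had more Foxo1 than replicate 7, at 23.6 and 19.9 TPM, but a lower list mean, at 5.75 and 5.93. The library with the most Foxo1 was also the highest for the list in 9 of the 12 groups, and CAC at 8 wk, CAC at 2 wk and NCAC at 4 wk were the exceptions. The part of glucocorticoids in the Foxo1 level was not tested.

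**Figure D2:**
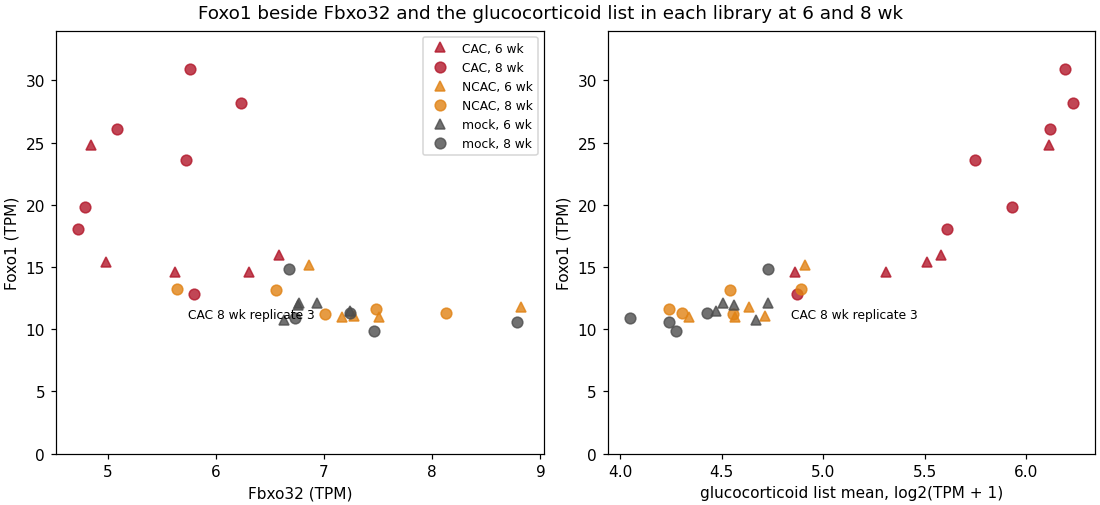
Foxo1 in TPM (vertical axis, from 0) against Fbxo32 in TPM (left) and against the mean log2(TPM + 1) of the 20 glucocorticoid-responsive genes (right), 1 point per library at 6 wk (triangles) and 8 wk (circles). In CAC at 8 wk, replicate 3 lies at 12.8 TPM of Foxo1 with a list mean of 4.87, and the 6 others lie between 18.1 and 30.9 TPM with list means of 5.61 to 6.23.

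Foxo3 was by far the most abundant FoxO transcript, and its rise at 8 wk was small. It ran from 132 to 158 TPM with a median of 138 TPM in CAC. NCAC libraries had 116, 128, 112, 129 and 126 TPM, and mock libraries had 107, 132, 120, 119 and 136 TPM. Every CAC library was above every NCAC library, a separation that 2.6% of all symbols had, whereas 4 of 7 were above every mock library. The log2 fold change was 0.19 ± 0.053 against mock (limma, adjusted p = 0.00737) and 0.20 ± 0.053 against NCAC (adjusted p = 0.00959). The call against mock was lost without mock replicate 1 (0.145, adjusted p = 0.0624) and with the compared groups fitted alone (limma, adjusted p = 0.0523).

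Foxo4, an X-linked member of the family, had a log2 fold change of like size. It ran from 24.2 to 31.2 TPM with a median of 25.15 TPM in CAC at 8 wk, against 24.4, 20.5, 20.4, 22.1 and 22.3 TPM in NCAC and 22.9, 20.4, 22.7, 23.8 and 23.6 TPM in mock. All 7 CAC libraries were above every mock library, as for 4.49% of all symbols in either direction, and 5 were above every NCAC library. The log2 fold change was 0.22 ± 0.073 against mock (limma, adjusted p = 0.0257) and 0.26 ± 0.073 against NCAC (adjusted p = 0.0115). The call against mock was lost without CAC replicate 5 (adjusted p = 0.0653), 6 (0.0516) or 7 (0.0507) or mock replicate 2 (0.0819), with the replicate number as a block (0.0589), with quantile normalization (0.0551) and without the mitochondrially encoded genes (0.0563), while the call against NCAC held in all 22 alternatives.

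The shares of the factors in the summed FoxO level are given without a test. In CAC at 8 wk Foxo1 made up 11.85 ± 2.66% of the summed TPM of Foxo1, Foxo3, Foxo4 and Foxo6 (SD, n = 7), against 7.70 ± 0.80% in the 5 NCAC libraries and 7.255 ± 0.82% in the 5 mock libraries. Foxo3 made up 73.7 ± 1.83% in CAC, against 77.5 ± 1.55% in NCAC and 77.65 ± 1.83% in mock. Foxo6, the family member found mostly in the nucleus, was at 0.84 ± 0.21 TPM in CAC, 1.26 ± 0.22 TPM in NCAC and 1.05 ± 0.53 TPM in mock. The summed FoxO level was 190.5 ± 14.8 TPM in CAC, 157 ± 7.39 TPM in NCAC and 158 ± 12.1 TPM in mock.

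Fbxo32, a FoxO target in muscle, went the other way. At 8 wk it ran from 4.73 to 6.23 TPM with a median of 5.725 TPM in CAC. NCAC libraries had 7.01, 7.48, 5.64, 6.55 and 8.13 TPM, and mock libraries had 8.78, 6.73, 7.46, 7.24 and 6.67 TPM. All 7 CAC libraries were below every mock library, beside 4.49% of all symbols without overlap in either direction, and 3 were below every NCAC library. On the log2 scale the fold change was -0.38 ± 0.080 against mock (limma, adjusted p = 5.51e-04) and -0.30 ± 0.080 against NCAC (adjusted p = 0.00898). CAC replicate 3, the library that stood apart, had 5.80 TPM, within the range of the other 6, and the value against mock without it was -0.39 (adjusted p = 3.99e-04). The call against NCAC was lost without NCAC replicate 5 (-0.25, adjusted p = 0.0563) and with the replicate number as a block (adjusted p = 0.056). Fitting the compared groups alone also ended it (limma, adjusted p = 0.0642).

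Fbxo32 was already low in CAC at 6 wk. CAC libraries had 4.85, 6.58, 5.62, 6.31 and 4.99 TPM, NCAC libraries 6.86, 7.51, 7.17, 7.28 and 8.82 TPM, and mock libraries 7.24, 6.75, 6.63, 6.94 and 6.77 TPM. Each CAC library was below each library of the other 2 groups. At 6 wk, CAC and mock did not overlap in either direction for 2.97% of all symbols, and CAC and NCAC for 6.74%. Against NCAC the log2 fold change was -0.36 ± 0.087 (limma, adjusted p = 0.0094), and Fbxo32 was the 1 member of 9 called, beside 9.45% of all symbols. Without CAC replicate 1 that call was lost (-0.31, adjusted p = 0.0547). Fitting the compared groups alone also ended it (limma, adjusted p = 0.0563). Against mock at 6 wk, -0.25 ± 0.087 was not called (adjusted p = 0.127). In that comparison limma called 0 of 9 members, beside 1.72% of all symbols, and 3 members had an unadjusted p under 0.05. At 2 and 4 wk the group means of Fbxo32 lay between 6.63 and 7.09 TPM with no call.

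Oligodendrocyte markers were also lower in CAC at 8 wk. In CAC at 8 wk 9 of 12 were called lower and none was called higher against mock in limma, with a median log2 fold change of -0.35. Over all symbols 7.34% were called lower and 13.4% higher, with a median of 0.021. Their summed level was 2230 to 2796 TPM in CAC, 2789 to 3165 TPM in NCAC and 2664 to 3615 TPM in mock. None of the 12 was at 0 in every library, and without CAC replicate 3 the count was 9 lower and 1 higher. At 6 wk limma called 0 of the 12 against mock, beside 1.72% of all symbols, with a median of -0.066. Fbxo32 was not called in that comparison either. Fbxo32 was called against NCAC at 6 wk. The summed markers of that week had a median of 2851 TPM in CAC, 3353 TPM in NCAC and 2945 TPM in mock. Their ranges were 2725 to 3301, 2928 to 3712 and 2601 to 3141 TPM in that order. The part of these cells in the level of Fbxo32 was not tested.

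Trim63 was too low for the fit over all symbols and was compared on its own. At 8 wk it ran from 0.097 to 0.29 TPM with a median of 0.134 TPM in CAC. NCAC libraries had 0.13, 0.066, 0.394, 0.198 and 0.127 TPM, and mock libraries had 0.031, 0.033, 0.129, 0.064 and 0 TPM. Of the CAC libraries, 5 of 7 were above every mock library and none was above every NCAC library. The difference of mean log2(TPM + 1) was 0.17 against mock (exact two-sided permutation test, p = 0.00758, adjusted over the 2 comparisons 0.0152) and 0.0056 against NCAC (exact p = 0.939). The level was under 1 TPM in every library, and the number of reads behind it is unknown. In the fit with no filter, CAC against mock at 8 wk had a difference of 0.171 ± 0.058 (limma, unadjusted p = 0.0047, adjusted p = 0.0428). NCAC against mock had a difference of like size, 0.165 ± 0.062 (limma, unadjusted p = 0.0108, adjusted p = 0.4998).

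Transcripts of skeletal muscle, the tissue in which Trim63 is best known, are first given by level at 8 wk, without a test. Ckm, the muscle creatine kinase, was at most 0.033 TPM in CAC, 0.776 TPM in NCAC and 0.158 TPM in mock. Myh4, a fast muscle myosin, was at most 0.016 TPM in CAC, 0.406 TPM in NCAC and 0.015 TPM in mock. Each of these maxima is the value of a single library. The group means were 0.018, 0.194 and 0.044 TPM for Ckm and 0.0044, 0.081 and 0.0030 TPM for Myh4 in that order. Acta1, the skeletal muscle actin, averaged 3.08 TPM in CAC, 3.92 TPM in NCAC and 2.89 TPM in mock, and Mylpf, a fast muscle myosin light chain, 1.254 TPM in CAC, 1.42 TPM in NCAC and 1.14 TPM in mock, each above the level of Trim63. The mean level of the muscle list per library was 1.51 to 1.81 in CAC, 1.55 to 2.03 in NCAC and 1.53 to 1.66 in mock on the log2(TPM + 1) scale. The part of muscle RNA in the Trim63 level was not tested. The muscle list had 8 of 15 genes past the filter. Of the 8, 2 were called higher and none lower in CAC against mock at 8 wk, beside 13.4% and 7.34% of all symbols. The 2 were Pvalb, which cerebellar interneurons and Purkinje cells also express, and Casq1 at 2.55 TPM in CAC against 1.39 TPM in mock, named after their values were seen. Without CAC replicate 1 or 6 the count was 1. In NCAC against mock at 8 wk limma called 0 of the 8, beside 0% of all symbols. The 15 summed to 1681 to 1943 TPM in CAC, 1642 to 1718 TPM in NCAC and 1590 to 1787 TPM in mock at 8 wk, and Pvalb alone averaged 1824 TPM in CAC and 1656 TPM in mock.

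Among the autophagy genes, Map1lc3b had the firmest rise. At 8 wk it ran from 138 to 162 TPM with a median of 145 TPM in CAC, against 131, 134, 138, 138.5 and 133 TPM in NCAC and 139.6, 132, 131, 129.9 and 126 TPM in mock. In each comparison 6 of 7 CAC libraries were above the highest library of the other group. Its log2 fold change was 0.17 ± 0.036 against mock (limma, adjusted p = 4.81e-04) and 0.14 ± 0.036 against NCAC (adjusted p = 0.00711). The call against mock held in all 22 alternatives. The call against NCAC was lost with the compared groups fitted alone (limma, adjusted p = 0.0782).

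Sqstm1 rose by less. It ran from 266.5 to 313 TPM with a median of 299 TPM in CAC at 8 wk, against 265, 260.3, 305, 275 and 275 TPM in NCAC and 292, 269, 271, 265 and 287.5 TPM in mock. The groups overlapped, with 5 of 7 CAC libraries above every mock library. The log2 fold change was 0.098 ± 0.036 against mock (limma, adjusted p = 0.0431) and 0.11 ± 0.036 against NCAC (adjusted p = 0.044). The call against mock was lost with median-of-ratios scaling (limma, adjusted p = 0.174) and quantile normalization (0.0732). It was also lost without the mitochondrially encoded genes (0.224), with no filter (0.0623) and with the compared groups fitted alone (0.143). It held in 5 of 12 fits that left out 1 library and in 4 of 10 other settings. It was lost without CAC replicate 1 (adjusted p = 0.0835), 4 (0.063), 5 (0.081) or 6 (0.107) or mock replicate 2 (0.0948), 3 (0.107) or 4 (0.126), and with a replicate block (0.126). The call against NCAC was lost without CAC replicate 1 (adjusted p = 0.086), 4 (0.0664), 5 (0.0838), 6 (0.112) or 7 (0.0546) or NCAC replicate 1 (0.122), 2 (0.164), 4 (0.087) or 5 (0.0848), and with the block (0.143). The same 3 scalings in that order (limma, adjusted p = 0.1655, 0.0713 and 0.198) and no filter (0.0657) also ended it. The call against NCAC held in 3 of 12 fits that left out 1 library and in 4 of 10 other settings. The highest adjusted p was 0.206, with the compared groups fitted alone (limma).

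Gabarapl1 was called against NCAC but not against mock. It ran from 510.2 to 571 TPM with a median of 562 TPM in CAC at 8 wk, against 480.4, 507, 555.5, 516 and 503 TPM in NCAC and 556, 498.5, 523, 512 and 539 TPM in mock. Of the 7 CAC libraries 6 were within 556 to 571 TPM, and replicate 3 was the low one. Of the 7, 5 were above every mock library and 6 above every NCAC library. The log2 fold change was 0.12 ± 0.038 against NCAC (limma, adjusted p = 0.0304) and 0.081 ± 0.038 against mock (adjusted p = 0.119). Without CAC replicate 3 it was called against mock too (0.10, adjusted p = 0.0427). The call against NCAC was lost without CAC replicate 1 (adjusted p = 0.0582), 4 (0.051) or 6 (0.0647) or NCAC replicate 1 (0.118), 2 (0.0696), 4 (0.0537) or 5 (0.0795), and with a replicate block (0.109). It held in 5 of 12 omissions of a single library and in 5 of 10 other settings, and the highest adjusted p was 0.169, without the mitochondrially encoded genes. The difference of NCAC against mock was -0.038 ± 0.041 (adjusted p = 0.87).

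Bnip3 and Ulk1 were not called in any comparison. Bnip3 ran from 94.3 to 142 TPM with a median of 138 TPM in CAC at 8 wk, against 126, 120.4, 135, 129.6 and 101 TPM in NCAC and 131, 110.5, 125, 112 and 125 TPM in mock. The 6 CAC libraries other than replicate 5 were above every mock library, and replicate 5 was below all of them. Its log2 fold change was 0.11 against mock, with a 95% confidence interval of -0.055 to 0.27 (limma, adjusted p = 0.365). Ulk1 ran from 84.5 to 95.3 TPM with a median of 90.65 TPM in CAC, against 90.7, 83.8, 85.1, 88.1 and 86.55 TPM in NCAC and 79.0, 94.7, 81.8, 82.3 and 85.4 TPM in mock. Its log2 fold change against mock was 0.090, with an interval of 0.0069 to 0.17 (adjusted p = 0.113). Without mock replicate 2, the highest mock library, Ulk1 was called (0.13, adjusted p = 0.0197).

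The summed level of the coat family at 8 wk is given without a test. Map1lc3a, Map1lc3b, Gabarap, Gabarapl1 and Gabarapl2 summed to 1446 ± 25.03 TPM in the 7 CAC libraries (SD), against 1384 ± 42.8 TPM in NCAC and 1397 ± 45.3 TPM in the 5 mock libraries. Map1lc3b made up 10.3 ± 0.65% of that sum in CAC, against 9.74 ± 0.16% in NCAC and 9.43 ± 0.27% in mock.

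**Figure D3:**
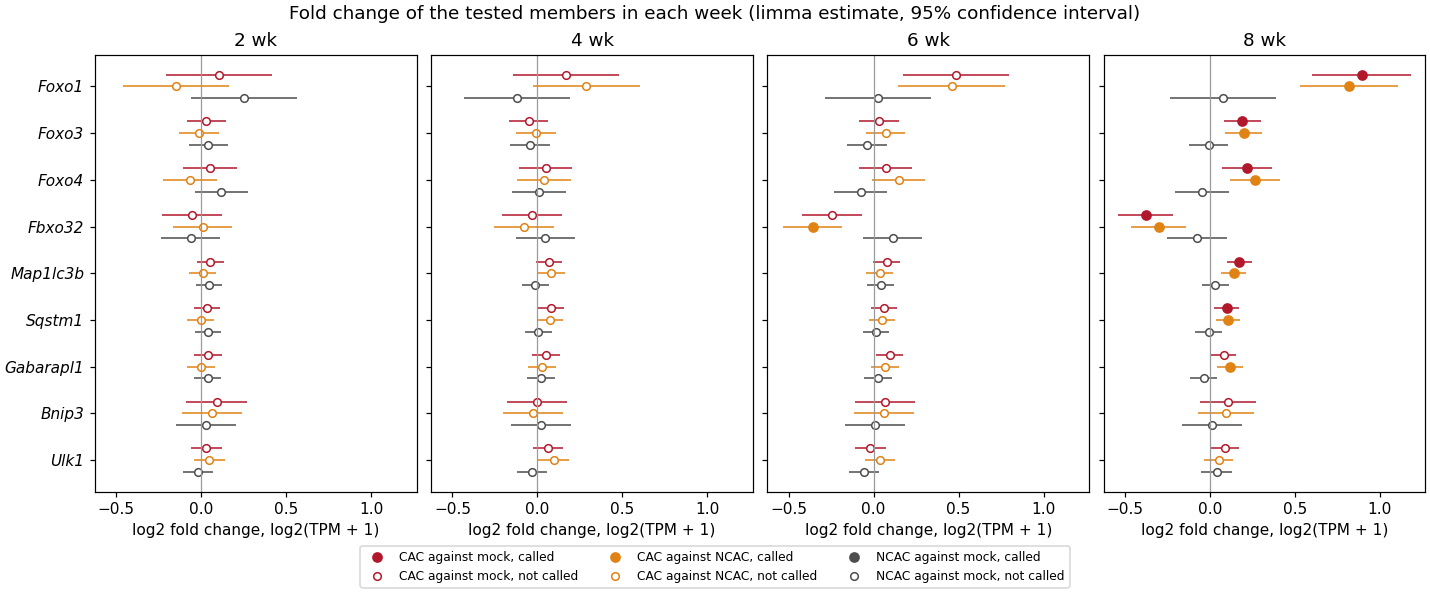
Log2 fold change on the log2(TPM + 1) scale (horizontal axis) of the 9 tested members in each week, with 95% confidence intervals from limma. Filled points passed the adjusted p threshold of 0.05 and open points did not. At 8 wk Foxo1 lies at 0.89 against mock and Fbxo32 at -0.38, while the NCAC against mock points of that week lie between -0.076 and 0.076.

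Before 6 wk limma called no member. At 2 wk limma called 0 of 9 members in CAC against mock and in CAC against NCAC, beside 0% of all symbols in each, and 0 in NCAC against mock, beside 0.0139%. At 4 wk it called 0 of 9 in CAC against mock and in CAC against NCAC, beside 0.00694% in each, and 0 in NCAC against mock, beside 0%. Members with an unadjusted p under 0.05 numbered 1 in CAC against mock and 2 in CAC against NCAC at 4 wk, and 0 in each comparison of 2 wk. At 6 wk NCAC against mock also gave 0 of 9 and 0%, and 0 members at an unadjusted p under 0.05.

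The transcripts closest to the called members by group means are given as a description. Picking the closest of all tested symbols selects for a high correlation, so its size is not a test. Each of the 6 members called in CAC against mock at 8 wk was set against all tested symbols by the Pearson correlation of the 12 group means, which come from the same libraries, and the 3 closest were taken. For Foxo1 they were Klf15, a glucocorticoid-induced factor (r = 0.992), Fbxo31, an F-box protein (0.9855), and Arl4d, a small GTPase (0.982). Klf15 was at 43.9 TPM in CAC and 23.6 TPM in mock at 8 wk on average, and Arl4d at 40.3 TPM in CAC and 15.5 TPM in mock. For Fbxo32 they were Fabp3 (0.972), Fez2 (0.966) and Abhd1 (0.966). Fabp3, a fatty acid binding protein, averaged 172 TPM in CAC and 213.5 TPM in mock, and Abhd1 averaged 20.01 TPM in CAC and 33.98 TPM in mock. For Map1lc3b they were Timp4 (0.965), Ift27 (0.961) and Acsl3 (0.957), and for Foxo3 Dclre1b (0.925), Crtam (0.918) and Kif26b (0.916). For Foxo4 they were Fem1c (0.9535), Uso1 (0.952) and Psph (0.948), and for Sqstm1 Nsg2 (0.955), Slc22a18 (0.9395) and Fam163b (0.9335). Of these symbols, Uso1 (limma, adjusted p = 0.124), Nsg2 (0.190) and Slc22a18 (0.104) were not called in CAC against mock at 8 wk.

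Genes known as FoxO targets in other tissues rose in the comparison in which Foxo1 rose. Of 20 tested in CAC against mock at 8 wk, 16 were higher and 2 lower in limma. Over all symbols 13.4% were called higher and 7.34% lower. The median log2 fold change of the 20 was 0.31, beside 0.021 for all symbols. This list was chosen with earlier results of these data known, so the count describes it and is not a test. Cdkn1a, a brake on the cell cycle, averaged 65.0 ± 30.2 TPM in CAC and 18.95 ± 2.27 TPM in mock (limma, adjusted p = 2.17e-05). Txnip, which limits glucose uptake, was at 59.7 ± 17.9 TPM in CAC and 23.1 ± 1.96 TPM in mock (adjusted p = 3.36e-05). Ddit4, an inhibitor of mTORC1, was at 120.2 ± 17.1 TPM in CAC and 67.6 ± 5.32 TPM in mock (adjusted p = 2.54e-06). Pink1, a kinase of mitophagy, was at 482 ± 24.6 TPM in CAC and 381 ± 12.6 TPM in mock (adjusted p = 3.80e-08). The 2 that fell, named after their values were seen, were the antioxidant enzymes Cat (-0.23) and Sod2 (-0.11). The count of lower genes was 1 without any 1 of CAC replicates 1, 2, 6 and 7 and mock replicates 1, 2, 3 and 5, and 0 with a replicate block. Against NCAC 11 were higher and 1 lower, beside 11.8% of all symbols called in either direction. Of the 20, Cdkn1a, Ddit4 and Pdk4 are also on the glucocorticoid list.

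All 20 genes of the glucocorticoid list were called higher at 8 wk against mock, with a median of 1.54, and 18 of 20 against NCAC. Over all symbols 13.4% were called higher against mock, and 11.8% were called in either direction against NCAC. The list was chosen with earlier results of these data known, so its count is a description and not a test. Lcn2 averaged 5.54 ± 3.58 TPM in CAC and 0.4745 ± 0.316 TPM in mock, the metallothionein Mt1 2055 ± 575 TPM in CAC and 690.2 ± 63.95 TPM in mock, and Tmem252 7.15 ± 2.33 TPM in CAC and 1.46 ± 0.334 TPM in mock. Without CAC replicate 3 the median was 1.70. At 6 wk 9 of 20 were called higher against mock, beside 1.72% of all symbols called in either direction. Sgk1, a FoxO kinase described next, is on this list too.

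Of 20 regulators of FoxO, 8 were called higher and none lower at 8 wk against mock, with a median of 0.090. Over all symbols 13.4% were called higher and 7.34% lower, with a median of 0.021. Sgk1, a glucocorticoid-induced kinase that phosphorylates FoxO proteins, averaged 98.4 ± 21.0 TPM in CAC and 41.1 ± 2.66 TPM in mock (log2 fold change 1.21, limma, adjusted p = 1.33e-05). Its relative Sgk3 was at 5.50 ± 1.98 TPM in CAC and 3.17 ± 0.269 TPM in mock (0.59), Pik3r1, a regulatory subunit of PI3 kinase, at 61.2 ± 3.97 TPM in CAC and 51.4 ± 3.67 TPM in mock (0.25), and the coactivator gene Crebbp at 32.7 ± 2.40 TPM in CAC and 28.3 ± 2.47 TPM in mock (0.20). The count was 5 with a replicate block, 5 with median-of-ratios scaling, 5 with quantile normalization and 4 without the mitochondrially encoded genes. It was 5 without any 1 of CAC replicates 4 and 6 and mock replicate 3, and 4 without mock replicate 1, which also ended the call of Crebbp (adjusted p = 0.0835).

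Of the other ubiquitin ligase and related genes linked to muscle wasting, 16 in all, 11 were tested. Among them 6 were called higher and none lower in CAC against mock at 8 wk, with a median of 0.10. The shares over all symbols were 13.4% higher and 7.34% lower, with a median of 0.021. The 5 that were not called, named after their values were seen, were Nedd4 (-0.052), Stub1 (-0.038), Mstn (-0.059), Fbxo30 (0.047) and Zfand5 (0.037). Fbxo31 averaged 67.4 ± 13.2 TPM in CAC and 49.1 ± 2.48 TPM in mock (0.43, limma, adjusted p = 1.53e-04), and Cblb, a ligase of receptor signalling, 22.9 ± 1.48 TPM in CAC and 17.8 ± 2.19 TPM in mock (0.35). Traf6 was at 15.8 ± 1.20 TPM in CAC and 13.3 ± 0.44 TPM in mock (0.23) and Trim32 at 193 ± 11.6 TPM in CAC and 170.4 ± 6.40 TPM in mock (0.18). After removal of the mitochondrially encoded genes, 2 of the 11 were called lower. Trim54 and Trim55, the close relatives of Trim63, averaged at most 0.065 and 0.020 TPM in any group.

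Genes that start autophagy and genes that attach lipid to LC3 were counted beside all symbols, of which 20.8% were called and 13.4% called higher. Of 18 genes of the starting complexes, 6 were higher and none lower at 8 wk against mock, with a median of 0.077. Atg13, a partner of Ulk1, averaged 87.1 ± 4.715 TPM in CAC and 75.2 ± 1.19 TPM in mock (0.21, limma, adjusted p = 2.54e-05), Wdr45 40.7 ± 4.635 TPM in CAC and 33.5 ± 1.48 TPM in mock (0.27), Wipi2 59.6 ± 2.47 TPM in CAC and 53.9 ± 0.98 TPM in mock (0.14), and Atg9a, which carries membrane to the forming autophagosome, 84.5 ± 3.54 TPM in CAC and 76.8 ± 2.14 TPM in mock (0.14). Of 14 conjugation genes 1 was called, the protease gene Atg4a, at 10.7 ± 1.23 TPM in CAC and 8.76 ± 0.695 TPM in mock (0.25, adjusted p = 0.0113), and the median was 0.0043. Atg4c (0.097, adjusted p = 0.0781) and Atg16l1 (0.068, adjusted p = 0.401) were not called. Without CAC replicate 3 or 5 the count was 2, since Atg4c then passed (adjusted p = 0.0457 and 0.0495).

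Of 12 tested autophagy receptors besides the members, 1 was called, Calcoco1, at 63.8 ± 3.895 TPM in CAC and 52.5 ± 1.66 TPM in mock (0.27, limma, adjusted p = 6.21e-05). Nbr1 (0.068, adjusted p = 0.0731) and Wdfy3 (0.13, adjusted p = 0.0895) were not called. Over all symbols 20.8% were called in CAC against mock at 8 wk, 13.4% higher and 7.34% lower. The count of higher receptors was 3 without CAC replicate 1 or mock replicate 2, and 2, with 1 lower, without CAC replicate 3. Without mock replicate 1 it was 2. The 18 lysosome genes split, with 3 higher and 3 lower and a median of -0.010. Stx17, which joins autophagosomes to lysosomes, was higher (0.20, adjusted p = 0.0112), as was the channel gene Mcoln1 (0.16, adjusted p = 0.0263), while Hexa (-0.31, adjusted p = 0.00205) and Lamp1 (-0.096, adjusted p = 0.0185) were lower. The lysosome calls are fragile: leaving out single libraries gave 1 higher without any 1 of CAC replicates 1 and 6 and mock replicates 1 and 3, and between 1 lower (without any 1 of CAC replicate 6 and mock replicates 1 and 3) and 5 lower (without mock replicate 4). With a replicate block 1 was higher and 1 lower, and against NCAC 0 of 18 were called, beside 11.8% of all symbols.

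2 further lists bear on single members, hypoxia on Bnip3 and the Nrf2 response on Sqstm1. For both, the shares over all symbols were 13.4% higher and 7.34% lower, with a median of 0.021. Of 14 hypoxia genes, 3 were higher and 3 lower at 8 wk against mock, with a median of -0.074. Slc2a1, the glucose transporter of the blood-brain barrier, rose (0.59, limma, adjusted p = 0.00238), as did Bhlhe40 (0.57) and Hif3a (1.78), whereas Ldha, a glycolytic enzyme, fell (-0.28, adjusted p = 0.00287). Hif3a is also on the glucocorticoid list. Of 10 Nrf2 genes, 3 were higher and 1 lower, with a median of 0.056. Nqo1, a quinone reductase, averaged 26.4 ± 3.52 TPM in CAC and 16.65 ± 0.885 TPM in mock (0.63, adjusted p = 1.86e-06), Gclc, an enzyme of glutathione synthesis, rose (0.16, adjusted p = 0.00945), and Hmox1, which breaks down haem, was at -0.23 (adjusted p = 0.0254). The call of Hmox1 was lost without CAC replicate 6 (adjusted p = 0.0847) or mock replicate 3 (0.117) or 5 (0.0888) and with a replicate block (0.108), and that of Gsta4 (0.18, adjusted p = 0.0443) in 14 of 22 alternatives.

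**Figure D4:**
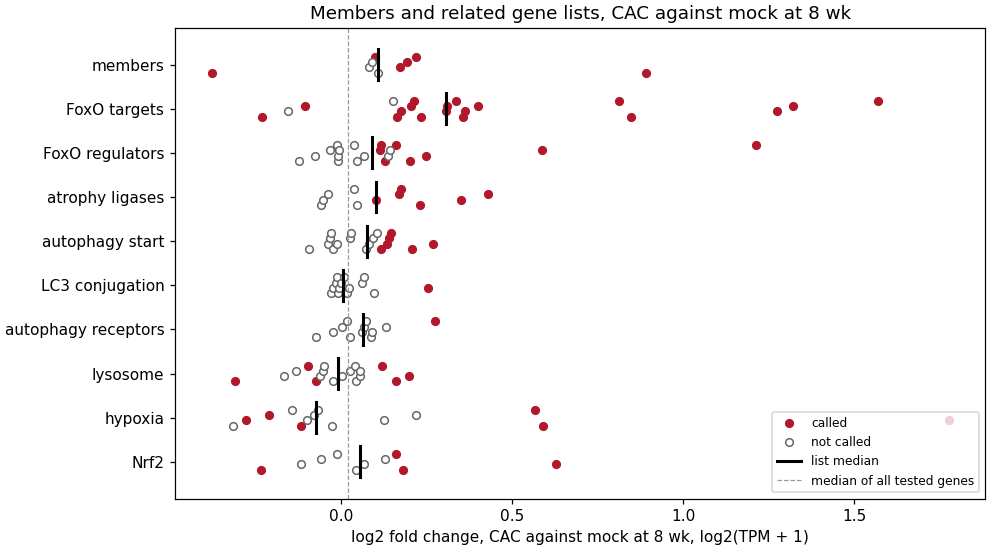
Log2 fold change in CAC against mock at 8 wk (horizontal axis, log2(TPM + 1) scale) of the 9 tested members and of the genes of 9 related lists, 1 point per gene. Filled points passed the adjusted p threshold of 0.05 in limma, black bars are medians and the dashed line is the median of all tested symbols, 0.021. The FoxO targets have the highest of the list medians drawn, at 0.31, and the LC3 conjugation and lysosome lists lie near 0.

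Markers of other cells at 8 wk, against mock, were called as follows, beside 13.4% of all symbols higher and 7.34% lower. Of 12 endothelial markers 3 were higher and 2 lower, of 10 choroid plexus markers 0 were called, and of 6 tested red cell markers 1 was higher. Of 12 astrocyte and Bergmann glia markers 3 were higher and 2 lower, and of 10 granule cell markers 1 was higher. Of 10 Purkinje cell markers 2 were higher and 1 lower, and of 11 microglia markers 4 were lower. The gene Slc1a6 stood on both the astrocyte and Bergmann glia list and the Purkinje cell list, so these lists are not separate. Against NCAC at 8 wk, 2 microglia markers were higher and none lower, and 2 granule cell markers were lower and none higher. That comparison called 11.8% of all symbols in either direction. In NCAC against mock at 8 wk the microglia markers had a median log2 fold change of -0.34, and limma called 0 of the 11, beside 0% of all symbols. Single libraries moved these counts: without CAC replicate 3 or mock replicate 3 no red cell marker was called, and without mock replicate 4 the microglia count was 8. Endothelial markers had 1 lower without any 1 of CAC replicate 1 and mock replicates 1 and 3. Granule cell markers had 2 higher without CAC replicate 5 or mock replicate 2 and 0 without mock replicate 1, and Purkinje cell markers had 1 higher without any 1 of CAC replicates 4 and 6 and mock replicates 1 and 5. The choroid plexus markers summed to 2408 to 7059 TPM in CAC at 8 wk, 362 to 6637 TPM in NCAC and 2864 to 5648 TPM in mock, and with their mean level as a covariate the members called at 8 wk were 6 against mock and 7 against NCAC.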

How the data were processed

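RNA of cerebellum was extracted with Trizol and sequenced from stranded mRNA libraries on an Illumina NovaSeq, per the labels' protocols. The deposited values are TPM computed by the authors, in a single table with a gene symbol per row and 1 column per library. Each column sums to 1000000, so read counts and depth are unknown, and a rise of some transcripts lowers the share left to others. The build is mm10, per the submitters' processing notes, and no source used here names the aligner or quantifier. The labels' protocols also mention a time point after injection of another cell type, which matches no sample.

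Symbols with a mean of at least 1 TPM were kept (14399) and log2(TPM + 1) was fitted with limma 3.58.1 in R 4.3.3, with all 12 groups in 1 fit and no block. Tests were two-sided with Benjamini-Hochberg adjustment over all tested symbols within each of 14 comparisons, at a threshold of 0.05. Trim63 was compared by an exact permutation test (scipy 1.17.1). The fit was tested on simulated data. No 2 libraries were identical, and mitochondrially encoded genes took 17.1% to 22.2% of TPM.

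The alternatives were another pseudocount (0.1), no filter or a mean of at least 5 TPM, 3 scalings, the replicate number as a block, weights for samples, choroid plexus markers as a covariate, fits limited to the compared groups, and leaving out each library. The members and gene lists were chosen with earlier results of these data known. Named from each list were up to 4 called genes with the smallest p in CAC against mock at 8 wk, and up to 2 others where fewer than 2 were called, and for each of the 6 members called in that comparison the 3 symbols with the most similar group means. Promoter sequences came from RefSeq (GRCm38.p6) and coordinates from GENCODE.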

Additional observations from a re-analysis of the deposited data

Results flagged for a closer look

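Of 120 member groups looked at (10 members in 12 groups), 10 had 1 library far from the rest, by a gap test that chance passes in about 1 of 20 groups. For Foxo1 these were CAC at 6 wk replicate 1, at 24.9 TPM against 14.6 to 16.0 TPM in the other 4, NCAC at 6 wk replicate 1, at 15.2 TPM against 10.97 to 11.8 TPM, and mock at 2 wk replicate 5, at 13.01 TPM against 9.85 to 10.3 TPM. Each of the 3 also had the highest glucocorticoid list mean of its group.

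Foxo3 in CAC at 4 wk replicate 2 was 148 TPM against 118 to 120 TPM in the others, in the library that had the highest Foxo1 of that group. Gabarapl1 in CAC at 8 wk replicate 3 was 510.2 TPM against 556 to 571 TPM, in the library with the red cell transcripts. Bnip3 in CAC at 8 wk replicate 5 was 94.3 TPM against 133 to 142 TPM, and in mock at 2 wk replicate 1 it was 87.2 TPM against 119 to 126 TPM. Sqstm1 in NCAC at 6 wk replicate 4 was 259.9 TPM against 286 to 295 TPM.

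Trim63 in NCAC at 2 wk replicate 3 was listed at 0 against 0.102 to 0.136 TPM in the others. In mock at 2 wk replicate 3 it was 0.255 TPM against 0.033 to 0.094 TPM, and that library had the highest Ckm level of the series, at 11.1 TPM. The part of muscle RNA in that Trim63 value was not tested.

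The difference of CAC against mock in Foxo1 changed between 2 and 8 wk by 0.79 on the log2 scale, by the test of that change itself (limma, adjusted p = 0.042). This call is fragile. It held in 5 of 22 fits that left out 1 library and in 7 of 10 other settings.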

How the results depend on the processing

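In CAC against mock at 8 wk the calls of Foxo1, Fbxo32 and Map1lc3b held in all 22 alternatives, with log2 fold changes of Foxo1 between 0.81 and 1.01. Members called there numbered 4 to 7 with 1 library left out, against NCAC 4 to 7, at 6 wk against NCAC 0 to 2, in the change from 2 to 8 wk 0 to 1, and 0 in every other comparison. Symbols called with 1 library left out numbered 2120 (without mock replicate 3) to 3521 (without CAC replicate 3) against mock and 1101 (without NCAC replicate 5) to 2304 against NCAC at 8 wk. At 6 wk they numbered 20 to 530 against mock and 248 to 1692 against NCAC, the lowest without CAC replicate 1 and the highest without CAC replicate 4.

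With sample weights, members called at 6 wk were 2 against mock and 2 against NCAC, those of the change were 2, and symbols called were 629 against mock and 2624 against NCAC at 6 wk and 2630 against NCAC at 8 wk. Fitting the compared groups alone gave 0 members against NCAC at 6 wk, 3 against NCAC at 8 wk and 0 for the change, and 0 symbols against mock and 348 against NCAC at 6 wk and 1648 and 685 at 8 wk. A mean of at least 5 TPM and the choroid plexus covariate each gave 2 members against NCAC at 6 wk, and no filter gave 0 for the change. The causes were not tested.

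The replicate block, which takes CAC 8 wk replicates 6 and 7 out of the comparison, gave 4 members against NCAC at 8 wk and 0 for the change, and 158 symbols against mock at 6 wk and 1894 against mock and 682 against NCAC at 8 wk. Whether replicate numbers pair the samples is unsettled. Of 60 same-number pairs, 16 correlated over 0.1 in their deviations from group means, and in 17 the library matched its own number best. In CAC against NCAC the mean same-number correlation was 0.16 at 2 wk, 0.15 at 4 wk, -0.0044 at 6 wk and -0.055 at 8 wk. Over all 60 pairs the mean was 0.021, against -0.0058 for other numbers.

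The sign turned for Map1lc3b (-0.0055) and Ulk1 (-0.0032) against NCAC at 6 wk with median-of-ratios scaling, and for Ulk1 against mock at 6 wk without CAC replicate 5 (0.0016, with the other single omissions down to -0.038), none of them called. For Trim63 against NCAC at 8 wk it turned without 1 of 6 libraries, over a range of -0.030 to 0.066. TPM gives no depth, so the floor of detection for Trim63 is unknown.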
